A study of Mus musculus with 5 samples.

Results

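Large peritoneal macrophages are the resident phagocytes of the mouse abdominal cavity, and 10 genes by which they are known were examined in peritoneal macrophages with and without neuropilin 1. The 10 genes were chosen by name from a deposited table of 38463 gene symbols, and all 10 had a row. They are Gata6, Prg4, Timd4, Selp, Alox15, Aspa, Icam2, Emr1, Garnl3 and Cd5l. Messenger RNA was sequenced from macrophages grown in F12 DMEM with 10% serum. The wild-type group (3 libraries) came from mice whose strain is given as C7/BL6. The knockout group (2 libraries) came from the strain LysMCre-Nrp1fl/fl, genotype Nrp1-/-, where the lysozyme M promoter drives Cre so that floxed Nrp1 is cut in myeloid cells. The labels name no library with the Cre driver alone, no age or sex, and no number of animals, so the spread between libraries of a group may be technical.

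In the mouse, resident peritoneal macrophages owe much of their character to the transcription factor GATA6, which is induced by retinoic acid made from vitamin A in the omentum and peritoneal lining. These cells carry high F4/80 and ICAM2 on their surface, take up apoptotic cells through TIM4, and express 12/15-lipoxygenase. A second, smaller population in the cavity has more MHC class II and derives from blood monocytes. Resident cells are also known to lose part of their tissue program once they are moved into culture.

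Nrp1 itself served as a limited check of the genotype labels. It stood at 24.3, 19 and 11.5 FPKM (fragments per kilobase of transcript, scaled to the mapped reads of the library) in wild-type replicates 1 to 3 and at 7.63 and 7.7 in the knockout replicates. Every knockout value thus lay below every wild-type value, as in 6.95% of all tested genes, while transcripts remained. The log2 fold change of Nrp1, -1.09 ± 0.32 (SE), did not pass over all genes (limma unadjusted p = 0.0117, adjusted p = 0.93). Lyz2, the locus of the Cre driver, was listed at 0 in every wild-type library and at 53 and 64.3 FPKM in the knockout. This difference passed over all genes (log2 fold change 5.89, limma adjusted p = 0.00042). A listed 0 need not mean that the transcript was absent. Why macrophage libraries were listed at 0 was not tested, so Lyz2 is not used as a check. The FPKM of a library summed to 539101 to 629135, and 11014 to 12020 genes reached 1 FPKM. Sequencing depth is unknown, since FPKM carry no counts. Wild-type replicate 3 stood apart: across tested genes its Pearson correlation with the other libraries was 0.929 to 0.938, against 0.966 to 0.972 among the others, and it held the lowest of the 5 values for 54.4% of genes. Without it the median log2 fold change of all tested genes fell from 0.11 to 0.02 and the share with a higher knockout mean from 63.9% to 53.4%. No row of the 10 genes was among those in which this library's values had to be put back in order.

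All 10 genes had FPKM above 0 in all 5 libraries, over a wide range of levels. Emr1 was the most abundant with a mean of 203 FPKM, followed by Prg4 with 94.5, Alox15 with 35.4, Icam2 with 13.9, Gata6 with 8.76, Timd4 with 5.54, Cd5l with 3.38, Garnl3 with 2.04, Selp with 1.31 and Aspa with 0.456. The ranges over libraries of Emr1 and Prg4 did not overlap, nor did those of Alox15 and Icam2, Icam2 and Gata6, or Selp and Aspa. Between Prg4 and Alox15, and along the run from Gata6 through Timd4, Cd5l and Garnl3 to Selp, neighbouring ranges overlapped. Within libraries Cd5l lay above Garnl3 in 5 of 5, and each of the other overlapping neighbours kept its order in 4 of 5. Among the 12214 tested genes Emr1 lay at the 96.9th percentile of mean level, Prg4 at the 93.5th, Gata6 at the 49.3rd and Selp at the 6.71st.

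**Figure D1:**
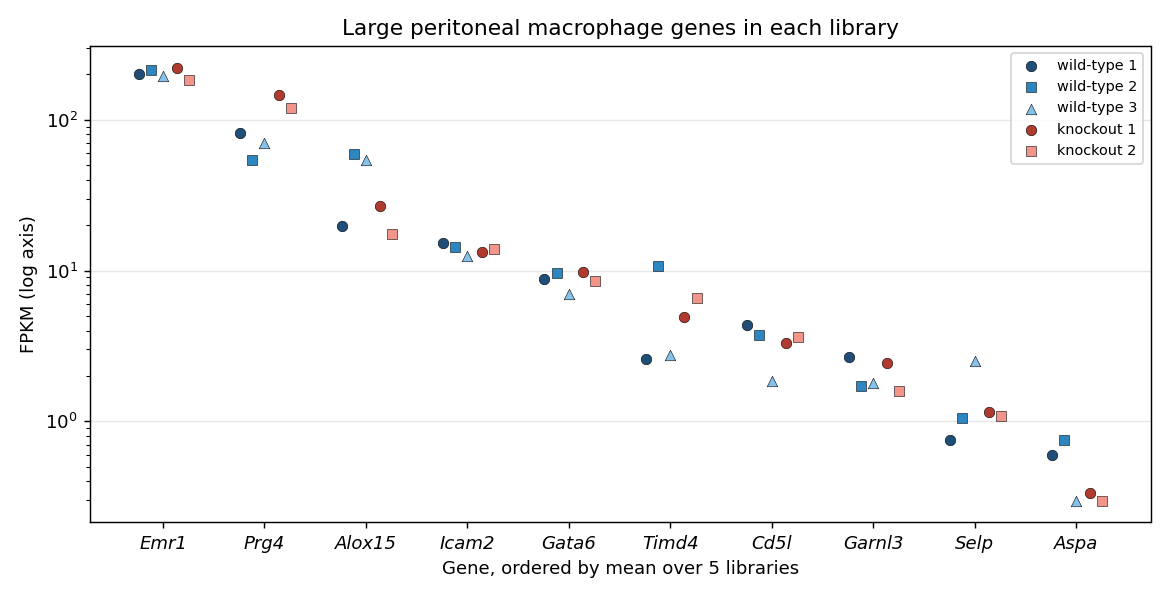
FPKM of the 10 genes in each library on a log axis, ordered by mean; blue symbols are the 3 wild-type libraries and red symbols the 2 knockout libraries. Prg4 is the gene whose knockout points (147 and 119) both lie above every wild-type point, and the knockout points of the other 9 overlap the wild-type range.

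Between knockout and wild-type macrophages none of the 9 tested genes of this set passed limma over all genes. The knockout mean was 1.94 times the wild-type mean for Prg4, 0.498 times for Alox15, 0.995 times for Emr1 and 1.08 times for Gata6. A gene was tested when it reached 1 FPKM in at least 2 libraries, which 9 of the 10 did; Aspa reached 1 FPKM in 0 libraries, while Selp, the lowest gene that passed, reached it in 4. By limma on log2(FPKM + 1), with Benjamini-Hochberg adjustment over all 12214 genes, 0 of the 9 passed an adjusted p of 0.05, where 0.0573% of all tested genes did. At an unadjusted p under 0.05 there was 1, Prg4, where 1.82% of all genes met that limit. Groups did not overlap for 1 of the 9, again Prg4, beside 20.8% of all tested genes, so the count shows nothing particular to the set. A higher knockout mean was found for 4 of the 9 and for 63.9% of all tested genes (7 and 72.6% with equal FPKM sums, 3 and 50.5% with median-of-ratios scaling), and the median log2 fold change was -0.01 for the 9 and 0.11 for all. In bulk RNA, fewer cells of a type and less RNA per cell cannot be told apart.

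**Figure D2:**
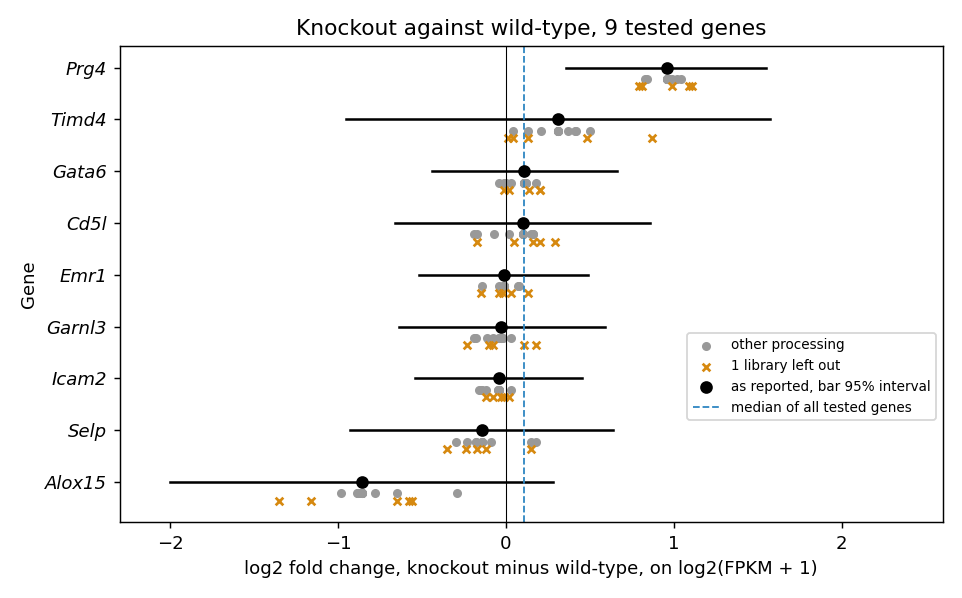
Log2 fold change (knockout minus wild-type, on log2(FPKM + 1)) of the 9 tested genes; black points with bars are the limma estimates with 95% intervals, grey dots are other processing choices, orange crosses leave out 1 library, and the dashed line is the median of all tested genes (0.11). The bar of Prg4, from 0.36 to 1.55, is the one that does not reach 0, and the bars of Timd4 and Alox15 are the widest.

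Gata6 encodes the zinc finger transcription factor that directs the large peritoneal macrophage program in mice. It stood at 8.79, 9.65 and 7.01 FPKM among wild-type libraries, with 9.82 and 8.51 in knockout. The groups overlapped, with the lowest value in wild-type replicate 3 and the highest in knockout replicate 1. Its log2 fold change, 0.11 ± 0.23 (SE), had a 95% interval of -0.44 to 0.66 (limma adjusted p = 0.94), so the interval in fold terms runs from 0.735 to 1.58. Gata6 lies on chromosome 18 of GRCm38, and 1.43% of its exon bases are shared with 1010001N08Rik on the opposite strand, which had at most 0.454 FPKM. The other GATA factors were low: Gata2, a factor of mast cells and blood progenitors, had 0.707 to 1.12 FPKM, and Gata1, Gata3, Gata4 and Gata5 reached at most 0.103. Gata6 was thus the predominant GATA transcript in each of the 5 libraries.

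The retinoic acid pathway, through which Gata6 is induced, was represented by 20 genes, of which 8 were tested and 0 passed in either direction. A higher knockout mean was seen for 5 and a lower one for 3, with a median log2 fold change of 0.07 that was -0.09 without wild-type replicate 3. Aldh1a2, which makes retinoic acid from retinal, had 2.82, 4.27 and 2.34 FPKM among wild-type libraries, with 3.13 and 3.11 in knockout. Its relative Aldh1a1 stayed under 0.1 FPKM in every library, as did Crabp1, Crabp2, Stra6, Cyp26a1 and Cyp26b1, which bind, import or degrade retinoids. Among the nuclear receptors Rxra stood at 29.7 to 43 FPKM, Rxrb at 25.6 to 33.1 and Rara at 8.55 to 35.9, with the lowest Rara value in wild-type replicate 3. Rarg, whose knockout values of 14.6 and 12.1 lay just under the wild-type values of 14.7, 22.7 and 15.3, had a log2 fold change of -0.35 ± 0.26 (SE, limma unadjusted p = 0.221). Rdh11 lay below in the same way, at 12.4, 11.9 and 15.6 FPKM against 10.5 and 9.99, beside 6.95% of all tested genes. Rdh10 lay above, at 1.49, 2.11 and 0.737 FPKM against 2.15 and 2.24, beside 13.9% of all tested genes. Rarb was below 0.5 FPKM throughout. Dhrs3, a retinal reductase and itself a retinoic acid target, was the most abundant gene of the list, at 182, 154 and 80.8 FPKM against 150 and 136.

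RefSeq start-site windows (GRCm38.p6, from 250 bases before to 50 after each annotated start) matched 5 of the 10 genes with 6 windows: Timd4, Selp, Aspa, Cd5l and, with 2 windows, Garnl3. The letters GATAA, the core of the sequence that GATA factors bind, were searched on both strands, where the other strand reads TTATC. Among all 32851 windows given, 25.4% hold them, and of the 5 genes 1 did. The windows of Cd5l, which holds 2 matches, and of Timd4 and Selp, the 2 of these genes with the widest range among wild-type libraries and no match, are shown with matches in capitals.
Cd5l, chr3:87357631-87357930, plus strand: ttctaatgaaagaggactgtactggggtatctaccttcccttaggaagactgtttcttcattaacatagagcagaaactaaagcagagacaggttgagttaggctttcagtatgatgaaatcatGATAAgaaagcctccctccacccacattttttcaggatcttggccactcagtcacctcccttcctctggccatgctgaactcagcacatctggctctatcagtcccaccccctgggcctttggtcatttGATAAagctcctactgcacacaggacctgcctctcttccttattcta
Timd4, chr11:46810549-46810848, plus strand: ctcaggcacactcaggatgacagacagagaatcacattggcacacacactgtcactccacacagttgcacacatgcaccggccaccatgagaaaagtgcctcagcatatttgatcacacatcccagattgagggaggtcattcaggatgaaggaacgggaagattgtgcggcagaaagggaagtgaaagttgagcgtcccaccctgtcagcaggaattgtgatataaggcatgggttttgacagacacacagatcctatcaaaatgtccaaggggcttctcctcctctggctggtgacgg
Selp, chr1:164115014-164115313, plus strand: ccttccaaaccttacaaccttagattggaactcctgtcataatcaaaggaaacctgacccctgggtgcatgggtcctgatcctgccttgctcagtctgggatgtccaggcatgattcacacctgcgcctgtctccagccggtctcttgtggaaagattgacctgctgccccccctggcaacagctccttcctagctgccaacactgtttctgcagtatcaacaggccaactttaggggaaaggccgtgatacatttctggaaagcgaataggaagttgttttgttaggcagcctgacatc
The first base of the matches in Cd5l lies at -126 and at 4 relative to the annotated start. A match is only a run of letters, and a window without one says nothing about binding elsewhere.

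Emr1, now named Adgre1, encodes F4/80, the adhesion receptor by which mouse macrophages are usually recognised. It lies on chromosome 17 (57358691 to 57483527). It stood at 201, 215 and 195 FPKM among wild-type libraries, with 222 and 183 in knockout, so the knockout pair enclosed the wild-type values. Between genotypes the log2 fold change came to -0.01 ± 0.21 (SE; 95% interval -0.52 to 0.49; limma adjusted p = 0.99). Its range among wild-type libraries was narrower than that of nearly all tested genes, at the 4.57th percentile of the log2 range. Of the related receptors, Emr4 was low (0.495 to 2.02 FPKM) and Cd97, a leukocyte adhesion receptor that binds CD55, stood at 83.9, 69 and 57.7 FPKM among wild-type libraries, with 41.1 and 49.4 in knockout. Both knockout values of Cd97 lay below all wild-type values, as in 6.95% of all tested genes, and its log2 fold change was -0.61 ± 0.24 (SE, limma unadjusted p = 0.0356, adjusted p = 0.93).

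Icam2 encodes an adhesion molecule that binds the integrin LFA-1 and serves, with F4/80, to sort large from small peritoneal macrophages. On chromosome 11 (106377656 to 106388075), it had 15.3, 14.4 and 12.4 FPKM among wild-type libraries, with 13.2 and 13.9 in knockout. This was a steady gene as well, with all 5 values within 1.23-fold of each other. Its log2 fold change was -0.04 ± 0.21 (SE; 95% interval -0.54 to 0.45; limma adjusted p = 0.97). Icam1, the inducible family member, was higher, at 35.3 to 64.8 FPKM, and Icam4 and Icam5 stayed below 0.5. The LFA-1 chains were present, with Itgal at 11.7 to 14.9 FPKM and Itgb2 at 943 to 1213. Endothelial cells also express Icam2. Of their markers Cdh5 reached at most 0.129 FPKM, Tek 0.0064, Kdr 0.0736, Pecam1 0.32 and Esam 0.449, Cldn5 was listed at 0 in all 5 libraries, and Vwf, which platelets share, stood at 2.07 to 3.94. Their part in the level of Icam2 was not tested.

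Timd4 encodes TIM4, the phosphatidylserine receptor with which resident macrophages bind dying cells. It lies on chromosome 11 (46810800 to 46844332). In wild-type it had 2.6, 10.8 and 2.76 FPKM, and in knockout 4.95 and 6.58. Wild-type replicate 2 alone was about 4-fold above the other wild-type libraries, and both knockout values fell between these extremes. The wild-type range was wider than that of 96.5% of tested genes. Knockout minus wild-type gave a log2 fold change of 0.31 ± 0.53 (SE; 95% interval -0.95 to 1.57; limma adjusted p = 0.93), and the estimate hung on single libraries. It came to 0.01, 0.87 and 0.04 when wild-type replicates 1, 2 and 3 were left out in turn, and to 0.48 and 0.13 when knockout replicates 1 and 2 were. Of the other TIM genes, Havcr2 (TIM3) had 1.29 to 2.11 FPKM, and Havcr1 (TIM1) and Timd2 stayed under 0.1. Of other genes for the binding of phosphatidylserine, Stab1 had 34.7, 28.1 and 21 FPKM and Mfge8 66.9, 44.1 and 51.7 among wild-type libraries, both highest in replicate 1. Axl, a receptor that binds it through Gas6, had 38.5, 54.2 and 42.7 and was highest in replicate 2, as Timd4 was, though over a narrower range.

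Selp encodes P-selectin, an adhesion molecule known from platelets and endothelium and also expressed by large peritoneal macrophages in mice. Its locus is on chromosome 1 (164115264 to 164150026). The wild-type values were 0.757, 1.05 and 2.52 FPKM and the knockout values 1.15 and 1.08. Wild-type replicate 3 was the high one, and the knockout pair lay inside the wild-type range. The log2 fold change was -0.14 ± 0.33 (SE; 95% interval -0.93 to 0.64; limma adjusted p = 0.94), and it turned to 0.15 without wild-type replicate 3. On the opposite strand Gm16548 shares 9.93% of the exon bases of Selp and Gm16587 shares 4.21%, and the labels do not say whether strand was used in quantification. Gm16548 was also highest in wild-type replicate 3, at 0.464 FPKM against 0.168 to 0.196 elsewhere, and Gm16587 was not (1.43 against 0.786 to 2.23).

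Some markers of other cells were also highest in wild-type replicate 3. All 9 mast cell genes had their highest value in wild-type replicate 3, where they summed to 191 FPKM against 20.1 to 39.8 in the others; Tpsb2, a mast cell tryptase, had 144 FPKM there and 10.1 to 21.9 elsewhere. The MHC class II genes H2-Aa, H2-Ab1, H2-Eb1 and Cd74 were highest there too, with H2-Ab1 at 317 FPKM against 81 to 115. They belong to a list of 18 genes of small peritoneal macrophages and dendritic cells. Of that list this library held the highest value of 7 genes and the lowest of 7. Ciita, of the same list, was lowest there, at 0.203 FPKM against 0.225 to 0.537. Of the platelet and endothelial genes 1, Esam, was highest there, at 0.449 FPKM against 0.22 to 0.406. The 12 genes summed to 784 FPKM against 404 to 961, a sum that is nearly all Pf4, and Gp9, Gp1bb, Tek, Kdr and Cldn5 stayed under 0.1 FPKM. The part of mast cell or MHC class II positive cells in the level of Selp was not tested. The endothelial selectin gene Sele reached at most 0.00842 FPKM, while Selplg, which encodes the ligand PSGL-1, stood at 75.6 to 120.

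Prg4 encodes lubricin, a secreted mucin-like glycoprotein that coats joints and serosal surfaces and marks large peritoneal macrophages. It lies on chromosome 1 (150449412 to 150466165, minus strand). The wild-type libraries had 81.8, 53.9 and 70.5 FPKM, or 68.7 ± 14 (SD, n = 3), and the knockout libraries 147 and 119, or 133 ± 19.5 (SD, n = 2). Both knockout values were above all wild-type values, and the lower knockout value exceeded the highest wild-type value by more than the wild-type SD. The log2 fold change of 0.96 ± 0.25 (SE) had a 95% interval from 0.36 to 1.55 and an unadjusted p of 0.00662, and did not pass over all genes (limma adjusted p = 0.93). Of all tested genes 13.9% had both knockout libraries above every wild-type library, and 1.19% were higher at an unadjusted p under 0.05. Without knockout replicate 1 the unadjusted p of Prg4 no longer fell under 0.05. The two-sided exact permutation test over the 5 libraries gave p = 0.2, the smallest that 3 against 2 libraries allow. The fold change stayed between 0.79 and 1.11 over all 17 alternatives, not all of which could change it, and its lowest adjusted p was 0.28.

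Set against other macrophage transcripts of the same library, which removes the scaling between libraries, Prg4 showed the same separation. It amounted to 40.7, 25 and 36.2% of the Emr1 FPKM among wild-type libraries, and to 66.1 and 65.1% in the knockout pair. Relative to Csf1r, the macrophage growth factor receptor, it was 10.7, 6.23 and 6.36% against 15.6 and 15%. Over the 5 libraries Emr1 varied 1.21-fold and Csf1r 1.45-fold, so these ratios largely repeat the Prg4 values and are no separate support. Such ratios show unequal change and do not say which transcript moved. The gene shares 204 exon bases (4.77%) with Tpr on the opposite strand, and Tpr too was higher in both knockout libraries, at 38.8, 37.6 and 19.1 FPKM among wild-type libraries, with 50.9 and 45.1 in knockout. The 15 mesothelial and fibroblast genes summed to 62, 59 and 28.2 FPKM among wild-type libraries, with 32.3 and 24.9 in knockout, sums that overlap between the groups. All 6 tested ones (Col1a1, Col1a2, Col3a1, Dcn, Sparc and Bgn) had a lower knockout mean, as did 36.1% of all tested genes, and 0 passed. For 2 of the 6, Col1a2 and Bgn, both knockout values lay below all wild-type values, beside 6.95% of all tested genes. Col1a2 had a limma unadjusted p of 0.0469 (adjusted p = 0.93). The mesothelial markers were below the test filter. Of these, Msln, Upk1b, Wt1, Krt8 and Krt18 had both knockout values below all wild-type values, while Upk3b and Krt19 overlapped. The share of 6.95% holds for genes above the filter, and none was computed for genes below it. Msln had 0.16, 0.131 and 0.167 FPKM among wild-type libraries, with 0.0757 and 0.0837 in knockout. The part of Tpr reads or of mesothelial cells in the Prg4 difference was not tested. Further genes of the lubricated and hyaluronan-rich matrix numbered 12, of which 5 were tested and 0 passed, and Cd44, a receptor that binds hyaluronan and lubricin, had 46.9, 62 and 16.5 FPKM against 49.2 and 54.2.

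Cd5l encodes a secreted scavenger receptor cysteine-rich protein, also called AIM, that protects macrophages from apoptosis. On chromosome 3 (87357881 to 87371073), it stood at 4.37, 3.73 and 1.84 FPKM among wild-type libraries, with 3.31 and 3.65 in knockout. The low value belonged to wild-type replicate 3, and the other 4 libraries lay close together. For this gene the log2 fold change was 0.10 ± 0.32 (SE; 95% interval -0.66 to 0.86; limma adjusted p = 0.95) and -0.17 without that library. Of 8 other genes of the domain family 2 were tested and 0 passed: Msr1, a receptor for modified lipoproteins, had 83.6 to 120 FPKM, and Lgals3bp 239 to 513. Cd163, the haemoglobin scavenger receptor of other resident macrophages, reached at most 0.341 FPKM.

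Alox15 encodes the 12/15-lipoxygenase, which oxygenates arachidonic and linoleic acid and which resident peritoneal macrophages are known to express strongly. It is on chromosome 11 (70344152 to 70352031, minus strand). Wild-type replicates 2 and 3 had 59.1 and 54 FPKM, wild-type replicate 1 had 19.8, and the knockout libraries had 26.8 and 17.4. The wild-type group was thus split, with 1 library inside the knockout range and 2 far above it, and its range was wider than that of 94.7% of tested genes. The log2 fold change of -0.86 ± 0.48 (SE) had a 95% interval from -2.00 to 0.28 (limma adjusted p = 0.93; two-sided exact permutation p = 0.4). Every alternative kept it negative, from -1.35 without wild-type replicate 1 to -0.29 with library weights, and it was -0.56 without knockout replicate 2 and -0.58 and -0.65 without wild-type replicates 2 and 3. Alox5, the leukotriene-forming lipoxygenase, stood at 43.4, 34.9 and 27.2 FPKM among wild-type libraries, with 51.7 and 42.7 in knockout, and its partner gene Alox5ap stood at 439 to 831. Alox12 and Alox8 stayed under 0.1 FPKM, and Alox12b and Alox12e were listed at 0 throughout.

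Aspa encodes aspartoacylase, which splits N-acetylaspartate into aspartate and acetate. It lies on chromosome 11 (73304992 to 73329596, minus strand). It had 0.6, 0.749 and 0.298 FPKM among wild-type libraries, with 0.336 and 0.298 in knockout, below the filter in every library. Wild-type replicates 1 and 2 were high and replicate 3 lay with the knockout libraries. With no filter its log2 fold change on this scale was -0.22 ± 0.14 (SE, limma adjusted p = 0.89). Nat8l, which makes N-acetylaspartate, was present at 2.66 to 3.86 FPKM, and Acss2, which activates acetate, at 15.6 to 26.2. Of 6 genes of this metabolism 5 were tested and 0 passed.

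Garnl3 encodes a protein with a Rap GTPase-activating domain. Its gene is on chromosome 2 (32986224 to 33131654, minus strand). The values were 2.67, 1.72 and 1.8 FPKM among wild-type libraries, with 2.44 and 1.58 in knockout, each group holding a high and a low library. The log2 fold change was -0.03 ± 0.26 (SE; 95% interval -0.64 to 0.59; limma adjusted p = 0.99). Of 12 other genes of Rap signalling 11 were tested and 0 passed; Rap1b was the most abundant at 61.5 to 108 FPKM, and the activating proteins Sipa1 and Rap1gap stood at 32.2 to 41.6 and 2.78 to 3.63.

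**Figure D3:**
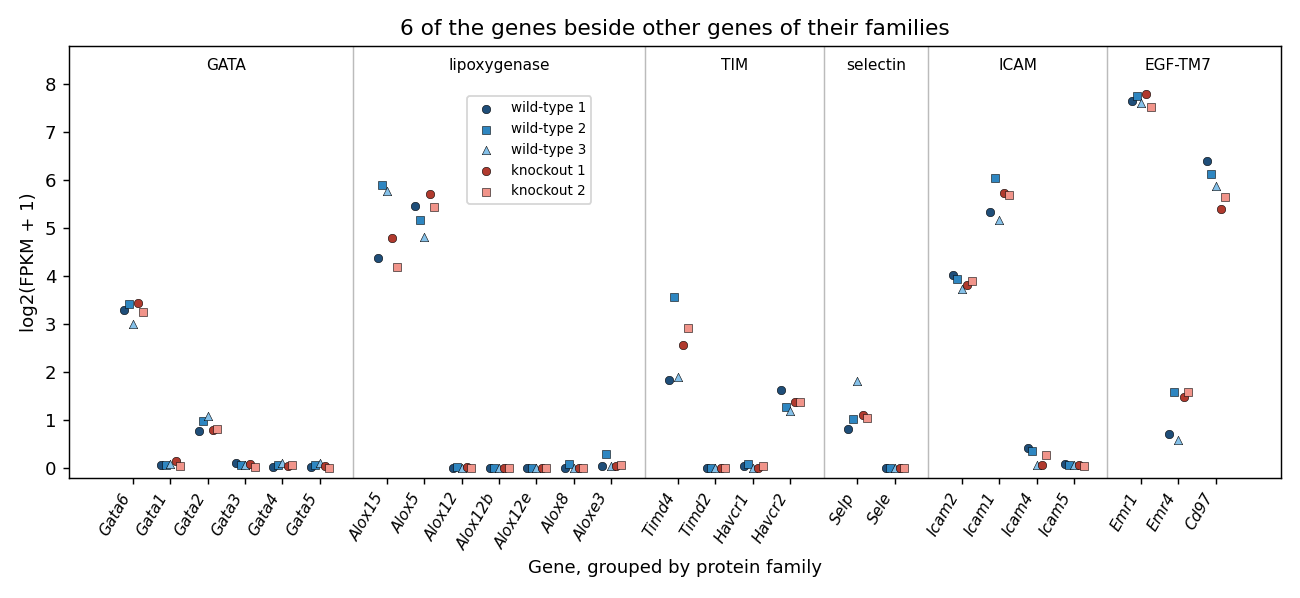
Level on the log2(FPKM + 1) scale of 6 of the genes and of some other genes of their protein families, each symbol 1 library. Gata6, Timd4, Selp and Emr1 lie above the relatives shown in mean level, while Icam2 lies below Icam1 in every library and Alox15 overlaps Alox5.

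The 10 genes had their highest and lowest values in different libraries. Wild-type replicates 1 and 2 and knockout replicate 1 each held the highest value of 3 genes, wild-type replicate 3 that of Selp, and knockout replicate 2 that of 0. Wild-type replicate 3 held the lowest value of Gata6, Icam2 and Cd5l, and knockout replicate 2 that of Alox15, Aspa, Emr1 and Garnl3. Timd4 and Alox15 shared their maximum in wild-type replicate 2 but differed in wild-type replicate 3, where Alox15 was high and Timd4 low. Prg4 was lowest in wild-type replicate 2. With 5 libraries no correlation between genes was computed.

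**Figure D4:**
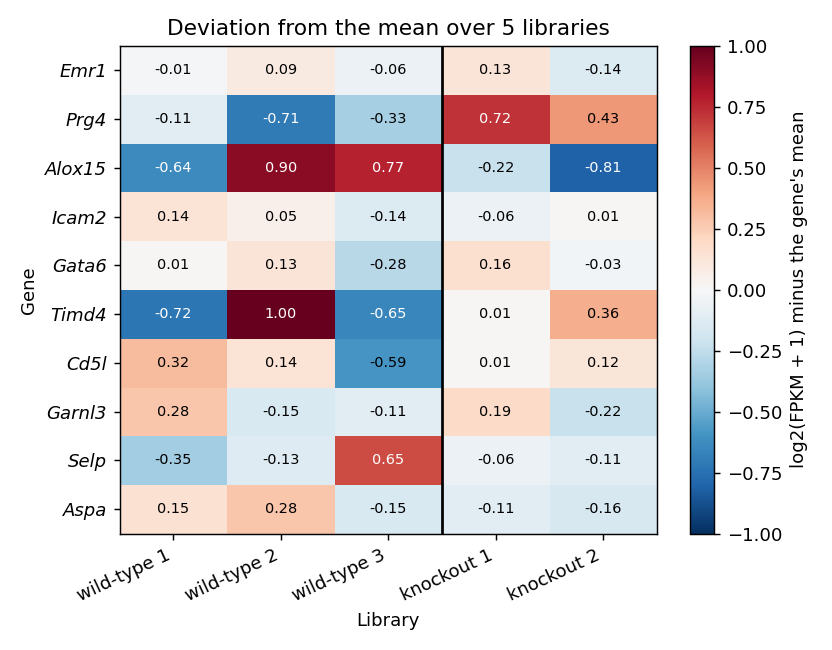
Difference of log2(FPKM + 1) in each library from the gene's mean over the 5 libraries, red above and blue below the mean, with the line parting wild-type from knockout. Prg4 is below its mean in the 3 wild-type libraries (-0.11, -0.71 and -0.33) and above it in both knockout libraries (0.72 and 0.43), the row of Timd4 has both its extremes within the wild-type group (-0.72 and 1.00), and that of Alox15 runs from 0.90 in wild-type replicate 2 to -0.81 in knockout replicate 2.

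For the 6 of the 10 with a mean of at least 5 FPKM, the genes closest in pattern were found by the mean absolute difference of centred log2(FPKM + 1) over the 5 libraries, among 8044 genes at that level. Prg4 was closest to Gm26315, 4932438A13Rik and Siglec1 (0.121, 0.123 and 0.123), and 8 genes came within 0.2. Siglec1, the sialoadhesin gene of macrophages, had 15.6, 8.35 and 16.8 FPKM among wild-type libraries, with 28.8 and 23.9 in knockout. For Timd4 the closest were Gm21970, Sdc4 and Sod2 (0.152, 0.173 and 0.194), with Sdc4, a heparan sulfate proteoglycan gene, at 6.17, 16.2 and 5.05 against 10.3 and 10.2 FPKM. For Alox15 they were Gm22133, Marcksl1 and Tmem176a (0.138, 0.181 and 0.206). Flat genes have many neighbours: 3478 genes came within 0.2 of Gata6 (first Actl6a, Hsd17b4 and Pced1a), 3295 of Emr1 (Toe1, Wbscr16 and Rftn1) and 3554 of Icam2 (Ccdc115, Smyd2 and Snx2), so a close pattern says little there.

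Among 26 other genes known from large peritoneal macrophages all 26 were tested and 0 passed in either direction. A higher knockout mean was found for 16 and a lower one for 10, and their median log2 fold change of 0.09 stood beside 0.11 for all genes. The most abundant were Saa3, a serum amyloid gene, at 9931 to 20156 FPKM, Fn1, which encodes fibronectin, at 595 to 1302, the transcription factor gene Cebpb at 222 to 785, and Cav1, which encodes caveolin 1, at 410 to 634. Both knockout libraries exceeded all wild-type libraries for 4 genes, named here after their values were seen: Tgfb2, Ltbp1, Naip1 and Thbs1. That is 4 of 26, beside 13.9% of all tested genes, so the count is near the background. Tgfb2, a transforming growth factor, had 11.3, 15.3 and 7.27 FPKM among wild-type libraries, with 18.1 and 17.4 in knockout, and Ltbp1, which holds the latent form of that factor, 24.8, 32 and 11.7 against 41.8 and 33.5. Each of the 4 was lowest in wild-type replicate 3, which held the lowest value for 54.4% of all tested genes. By the way they were picked, their lowest value had to lie in the wild-type group. In 1 gene, Anxa3, both knockout libraries lay below, at 183 and 161 FPKM against 193 to 213, beside 6.95% of all tested genes.

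Genes of small peritoneal macrophages and dendritic cells (18, of which 14 were tested) had 0 called members, 5 with a higher and 9 with a lower knockout mean, and a median log2 fold change of -0.35, which came to -0.51, -0.23 and -0.27 when wild-type replicates 1, 2 and 3 were left out in turn. Both knockout libraries lay below all wild-type libraries for 3 of the 14, H2-Eb1, Cx3cr1 and Fcrls, beside 6.95% of all tested genes. Cx3cr1, the fractalkine receptor, had 10.8, 18.5 and 19 FPKM in wild-type replicates 1 to 3 and 7.72 and 4.9 in the knockout pair. Its log2 fold change was -1.21 ± 0.32 (SE, limma unadjusted p = 0.00732, adjusted p = 0.93), and -0.93 with an unadjusted limma p of 0.0707 without knockout replicate 2. Their most abundant members, Cd74 and the MHC class II genes, summed with the list to 992, 727 and 2187 FPKM among wild-type libraries, with 769 and 606 in knockout, highest in wild-type replicate 3. Ccr2, the chemokine receptor of monocyte-derived cells, was near 1 FPKM in all libraries (0.802 to 1.41), and the dendritic cell gene Flt3 stayed under 0.1. Of 8 monocyte genes 4 were tested and 0 passed, with 2 higher and 2 lower in knockout mean and a median log2 fold change of 0.00. Ly6c2 had 18.3, 9.13 and 13.8 FPKM among wild-type libraries, with 20.4 and 26.3 in knockout (log2 fold change 0.76 ± 0.31 SE, limma unadjusted p = 0.0451, adjusted p = 0.93). Both its knockout values lay above all wild-type values, as in 13.9% of all tested genes. F13a1 (-0.01), Ccr2 (0.02) and Chi3l3 (-0.14) moved little, and Plac8 reached at most 0.516 FPKM. The 16 pan-macrophage genes were all tested with 0 called and a median of -0.04, and Tyrobp, Cd68 and Fcer1g stood at 2157 to 3157, 1141 to 1964 and 904 to 1069 FPKM. Among B cell genes Igkc stood at 17 to 30.5 FPKM, Ighm at 9.21 to 16.2 and Cd79a at 0.697 to 1.37, and T and NK cell genes summed to at most 1.27 FPKM. Macrophage transcripts were thus abundant, as the label of the cells says, and immunoglobulin transcripts were also present, with Igkc above Gata6 in all 5 libraries.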

How the data were processed

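Per the labels' protocols, poly(A) RNA from 1 µg of total RNA was made into Ion Torrent whole-transcriptome libraries, and the software was Torrent Suite 4.4 with version 4.2-r7 of the Whole Transcriptome Analysis Plugin. It aligned reads to mm10 with TopHat2, then unmapped reads with Bowtie2, and computed FPKM with Cufflinks, per the labels' protocols. The deposited values used are FPKM per gene name. A further 17 deposited columns were not used. The gene names are sorted with hyphens ignored, whereas the values of wild-type replicate 3 follow a sort that counts hyphens. In 2144 displaced rows they were put back, which raised Pearson's r with the mean of the other libraries from 0.171 to 0.916 over 722 expressed rows. Of 38757 rows, 27 with a number as name and 50 whose names differ only in case were left out, and rows of 165 repeated symbols were summed.

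Genes with at least 1 FPKM in at least 2 libraries were tested on log2(FPKM + 1), a pseudocount of 1, by limma (version 3.58.1, under R 4.3.3) with genotype as the single term, a mean-variance trend and all 5 libraries. Fold changes on that scale understate the change of low genes. Since the labels do not say that libraries came from separate animals, p-values cover no more than library-to-library spread. The fit was tested on simulated data with these genes' means and spreads and 200 changed genes per draw, all at about 5 FPKM or more. At the same threshold 20.6% of 2-fold, 95.2% of 4-fold and 99.7% of 8-fold changes were recovered. A gene that did not pass may therefore still differ by about 2-fold, and lower genes were not covered. Exact permutation tests used scipy 1.17.1. Positions are from GENCODE M21 (GRCm38, the build also called mm10). All 10 genes are named, as are Nrp1, Lyz2, up to 4 of the most abundant genes of each list where they bear on a result, and the 3 nearest genes in pattern; family members and markers beyond that rule were picked after their values were seen. The 10 genes and all lists were chosen with earlier results of these data known. The 17 alternatives covered row order, pseudocount, filter, scaling, library weights, a replicate block and each library left out. Row order could not change the fold changes of the 10 genes, since none stood in a displaced row. Among the list genes named here, Naip1, H2-Eb1, Cd97 and Nat8l did stand in displaced rows. Their wild-type replicate 3 values are those put back in order.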

Additional observations from a re-analysis of the deposited data

How the results depend on the processing

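Of the 9 tested genes 0 passed under any of the 17 alternatives. Prg4 kept a positive fold change in all of them (log2 0.79 to 1.11, adjusted p 0.28 to 1), as did Timd4 (0.01 to 0.87), and Alox15 kept a negative one (-1.35 to -0.29). The other 6 changed sign in some. Wild-type replicate 3 is alone in its block, so the replicate block gives these genes the same fold changes as leaving that library out. The pair is therefore a single check. Gata6 (0.11) was -0.00 with median-of-ratios scaling, -0.04 with quantile normalization, -0.01 with the replicate block and -0.01 to 0.20 with 1 library left out. Selp (-0.14) was 0.18 with library weights, 0.15 with the replicate block and -0.35 to 0.15 with 1 library left out. Cd5l (0.10) was -0.07 with quantile normalization, -0.19 with library weights, -0.17 with the replicate block and -0.17 to 0.29 with 1 library left out. With equal FPKM sums Icam2 was 0.03, Emr1 0.07 and Garnl3 0.03, and with quantile normalization Emr1 was 0.08. Leaving out 1 library gave -0.12 to 0.02 for Icam2 (0.02 without wild-type replicate 1), -0.15 to 0.13 for Emr1 (0.03 without wild-type replicate 2, 0.13 without knockout replicate 2) and -0.23 to 0.18 for Garnl3 (0.11 without wild-type replicate 1, 0.18 without knockout replicate 2). The cause was not tested. Of the 9, 4 had a higher knockout mean, 7 with equal FPKM sums and 3 to 6 with 1 library left out. Their median was -0.01, and 0.13 without knockout replicate 2. The median of all genes, 0.11, was 0.17 with equal FPKM sums, 0.00 with median-of-ratios scaling, 0.02 with the replicate block, 0.03 with library weights and 0.02 without wild-type replicate 3, so small fold changes hang on the scaling and on that library. Scaling to pan-macrophage genes left it at 0.11.

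Over all genes 5 were called higher and 2 lower. The counts were 2 and 1 with values as deposited, 3 and 2 with a pseudocount of 0.1, 0 and 1 with 0.01, 1 and 0 with no filter, 1 and 1 with a filter at 5 FPKM, 12 and 9 with library weights and 3 and 1 with the replicate block. With 1 library left out they ranged from 0 to 7 higher and 0 to 7 lower. Where limma called 0, genes at an unadjusted p under 0.05 numbered 117 higher with a pseudocount of 0.01, 283 lower with no filter, 36 higher and 34 lower without knockout replicate 1, and 41 and 26 without knockout replicate 2. The filter at 5 FPKM left Selp, Garnl3 and Cd5l without a value. Deviations of same-numbered libraries correlated at -0.051 and -0.008 across genes. With 2 knockout libraries their deviations are mirror images, so these values cannot decide whether replicate numbers mark pairs.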

Other observations

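Markers of other macrophages and cells, picked after their values were seen, differed widely in level. Tmem119, a gene used to mark microglia, stood at 4.82 to 6.25 FPKM in the 5 libraries, the microglial gene P2ry12 at 0.331 to 0.698, and the microglial genes Sall1 and Siglech and the Kupffer cell gene Clec4f stayed under 0.1. Pf4, which encodes platelet factor 4, had 400 to 956 FPKM beside at most 0.706 for its platelet companion Ppbp. Vwf, the von Willebrand factor gene, had 2.07 to 3.94 FPKM in libraries in which Cdh5 reached at most 0.129.

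S100a8 and S100a9 encode the subunits of calprotectin and are usually found together in neutrophils and monocytes. Here S100a8 stood at 64.3, 22.6 and 72.4 FPKM among wild-type libraries, with 43.2 and 57.3 in knockout, whereas S100a9 had at most 0.757. The neutrophil gene Retnlg was listed at 0 in all libraries, and Csf3r, the receptor for granulocyte colony stimulating factor, had 54.7 to 103.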
